A study of Sus scrofa with 32 samples.

Results

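The cells described here are ileal dendritic cells (DCs) of the pig, picked from droplet-based single-cell RNA sequencing of the ileum. A barcode was first kept if it held at least 1250 UMIs (unique molecular identifiers, each standing for 1 captured transcript), at least 550 genes and at most 12.5% of its UMIs from mitochondrial genes. It was then taken as a DC if it held at least 1 UMI of FLT3, at least 5 UMIs of SLA-DRA and at least 1 UMI among FCER1A, SIRPA, XCR1 and CLEC9A. It also had to hold no CD3E, CD79B or EPCAM and fewer than 4 UMIs of C1QA, C1QB and C1QC together. This gate found 56 DCs among 35386 kept ileal barcodes, a share of 0.158% (95% Clopper-Pearson interval 0.120% to 0.205%). CLEC9A is not named in the matrices, so it added no cell.

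Conventional DCs are antigen-presenting cells that depend on FLT3, the receptor for FLT3 ligand. They are usually divided into cDC1, which carry the chemokine receptor XCR1 and rely on the transcription factors IRF8 and BATF3 to cross-present antigen to CD8 T cells, and cDC2, which carry SIRPA and prime CD4 T cells. In the gut they sample antigen in the lamina propria and in the domes of Peyer's patches (PPs) and carry it to lymph nodes. Macrophages of the same tissue share much of the antigen presentation machinery but express complement C1q.

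Tissue came from the distal ileum of 2 mixed-breed pigs aged 7 weeks, pig 1 labelled female and pig 2 labelled male, with no treatment named in the labels. From each pig there were 3 dissections, with PPs (PP), without PPs (non-PP) and the whole ileum, and a sample of peripheral blood mononuclear cells (PBMCs). Epithelium, lamina propria, submucosa and any PPs were kept and the outer muscle was removed. Density centrifugation and dead-cell removal favoured viable lymphocytes, which limits the samples as a census of DCs. The 6 ileal libraries held between 21134542 and 40111934 UMIs each.

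One library went against its label. Y-linked genes were at 207 CPM (UMI counts scaled to a fixed total per sum, the usual depth-corrected unit) in kept barcodes of the library labelled whole ileum of pig 1, the female. They were at 0.161 and 0.224 CPM in the PP and non-PP libraries of that pig and at 213, 185 and 226 CPM in the PP, non-PP and whole ileum libraries of pig 2. The DCs of the library in doubt held 171 CPM of these genes, and it supplied 13 of the 22 DCs labelled pig 1. Wherever pig 1 is named below, the label is meant, and results that rest on this library are also given without it. Kept barcodes were shared between ileal libraries at 21 to 80 per pair over 15 pairs, no DC barcode was a DC in another library, and 1 DC barcode was also kept elsewhere.

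The genes of the gate divided the DCs, with little overlap between XCR1 and the other 2 subset genes. FCER1A, the alpha chain of the high-affinity IgE receptor (ENSSSCG00000006413, Sscrofa11.1 chr4:91118867-91125448 by RefSeq), was detected in 40 of the 56 cells with up to 33 UMIs. SIRPA, an inhibitory receptor for CD47 (ENSSSCG00000028461, chr17:33566270-33611375), was seen in 15 cells. XCR1 (ENSSSCG00000026707, chr13:29150376-29233802) was seen in 13 cells with at most 3 UMIs. XCR1 and SIRPA were never detected in the same cell, and XCR1 and FCER1A met in 2 cells. FCER1A alone marked 28 cells, FCER1A with SIRPA 10, SIRPA alone 5 and XCR1 alone 11. These counts describe what the gate selected on and carry no test.

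Many members sat close to the thresholds. FLT3 itself (ENSSSCG00000009314, chr11:5370475-5455439) stood at 1 UMI in 22 cells and at 2 or more in 34, with a maximum of 5. SLA-DRA, the alpha chain of MHC class II (chr7:24825037-24830650), ranged from 5 to 349 UMIs with a median of 80.5, and was under 10 in 2 cells. In 14 cells a single UMI met the condition on the subset genes, and 7 held 1 to 3 UMIs of C1q. Just outside, 42 barcodes met every other condition but had no FLT3 UMI and 22 had none of the subset genes. A further 28 held a lineage gene (CD3E in 21, CD79B in 13, EPCAM in 3), and 4 held 4 or more C1q UMIs.

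**Figure D1:**
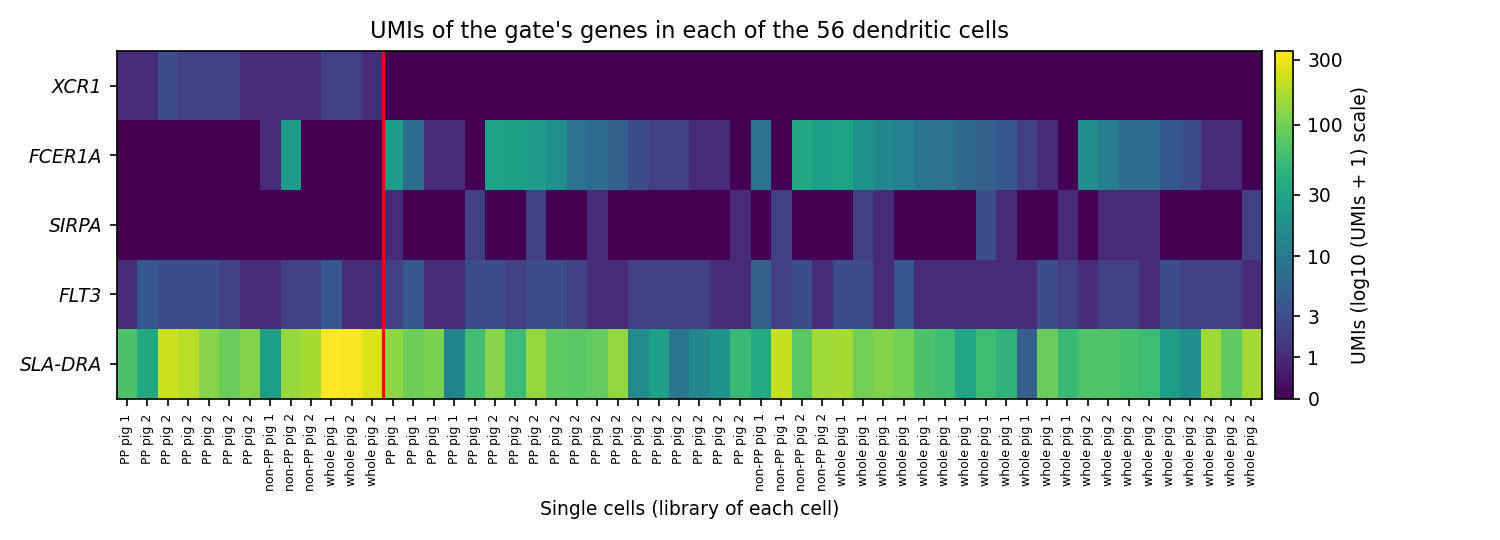
UMI counts of 5 genes of the gate (rows, colour on a log scale) in each of the 56 ileal DCs (columns, named by library), with XCR1-positive cells left of the red line. XCR1 appears in 13 cells and FCER1A in 40, with 2 cells holding both, and no cell holds XCR1 with SIRPA.

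The DCs were deeply sampled cells. Their median was 6270.5 UMIs (1521 to 19721) and 1750 genes (563 to 3578), against a median of 2756 UMIs over all kept ileal barcodes and 3231 in C1q-positive macrophages. The highest doublet score was 0.179, and none passed the limit of 0.25. Together the 56 cells gave 358071 UMIs, so a gene at 1 UMI in 1 cell is near the limit of what could be seen. Detection of XCR1 depended on depth. Once each cell was thinned to 1250 UMIs, XCR1 was seen in 7.14% of DCs, compared with 23.2% at full depth and none of the macrophages.

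DCs were rare in every dissection. Their share was higher in PP than in non-PP in both pigs, by very different amounts. The exact permutation test used here cannot reach a p under 0.05 with 2 samples a group. With PPs, 6 of 7337 kept barcodes of pig 1 were DCs (0.0818%, exact 95% interval 0.0300% to 0.178%) and 19 of 6872 of pig 2 (0.276%, 0.167% to 0.431%). Without PPs there were 3 of 3908 (0.0768%, 0.0158% to 0.224%) and 4 of 3776 (0.106%, 0.0289% to 0.271%). In whole ileum there were 13 of 5789 (0.225%, 0.120% to 0.384%) in the library labelled pig 1 and 11 of 7704 (0.143%, 0.0713% to 0.255%) in pig 2. PP of pig 2 stood highest, and PP of pig 1 lay between the non-PP samples. The means were 0.179% ± 0.138 in PP and 0.0913% ± 0.0206 in non-PP (SD, n = 2). An exact two-sided unpaired permutation test gave p = 0.667, where 0.333 is the smallest p that this test allows. The difference was 0.00501 percentage points within pig 1 and 0.171 within pig 2. With FLT3 at 2 or more UMIs the difference within pig 1 turned to -0.0103. Without PP of pig 2 the difference of PP from the non-PP mean was -0.00957.

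The denominator matters for such a share, because PPs are rich in B cells. Among barcodes without CD79B the share was 0.505% ± 0.379 in PP and 0.0930% ± 0.0218 in non-PP (SD, n = 2). The groups were apart, with an exact permutation p = 0.333, the smallest that this test allows. Set against macrophages alone, DCs made up 39.1% ± 28.7 of both gates together in PP and 30.4% ± 0.544 in non-PP (SD, n = 2), with an exact permutation p = 1. PP lay below non-PP by -11.2 percentage points in pig 1 and above it by 28.6 in pig 2. The binomial intervals above cover counting error only.

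**Figure D2:**
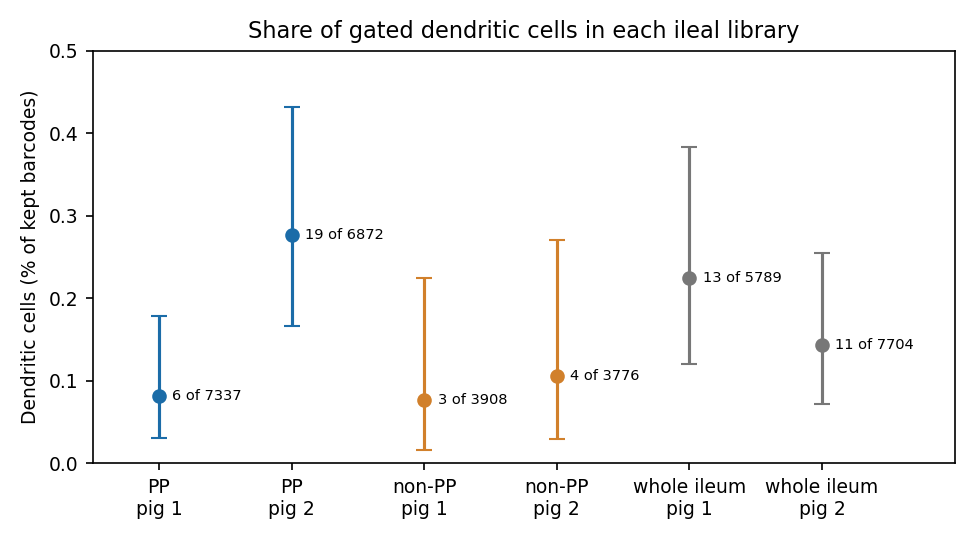
Percent of kept barcodes called DC in each of the 6 ileal libraries, with exact 95% binomial intervals. PP of pig 2 is highest at 0.276%, and all 6 intervals overlap.

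The DCs carried a set of genes that 4 other gated ileal classes held at lower levels. The genes below had the highest ratio of CPM in DCs to CPM in T and innate lymphoid cells (ILCs), B cells, epithelial cells or macrophages gated from the same libraries. They describe the gate, and no test was made on them. No mast cell gate was among the classes. The 42 barcodes that met every condition but FLT3 held several of them too, with PLBD1 at 310 CPM, PAK1 at 287 CPM, IL18BP at 542 CPM, CD1E at 162 CPM and MS4A2 at 125 CPM. CIART, a circadian repressor, was at 363 CPM in 17 of the 56 cells, against 16.5 CPM in macrophages. PAK1, a kinase that acts on the actin cytoskeleton, was detected in 48 cells.

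PAK1 varied little between libraries. It stood at 376 and 358 CPM in PP, 400 and 435 CPM in non-PP and 355 and 369 CPM in whole ileum of pigs 1 and 2, compared with 44.1 CPM in epithelial cells, 28.3 CPM in macrophages and 6.31 CPM in T cells and ILCs. CD1E, a lipid antigen-presentation protein (chr4:92012787-92019363), was found in 27 cells at 292 and 158 CPM in PP, 178 and 186 CPM in non-PP and 382 and 134 CPM in whole ileum. CD207, the lectin langerin, was found in 18 cells but in neither the PP nor the non-PP library of pig 1. RAMP1, a receptor component for calcitonin gene-related peptide, was found in 22 cells, and PLBD1, a phospholipase-like protein, in 40.

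IL18BP, which binds and neutralises IL-18 (chr9:6586602-6596423), was uneven between libraries. It was detected in 40 DCs at 2006 and 1008 CPM in PP, 44.4 and 1617 CPM in non-PP and 1106 and 990 CPM in whole ileum. The low value came from the 3 DCs of non-PP pig 1. Macrophages held 186 CPM and B cells 22.3 CPM. The set also contained ZBED2 and NYAP2 in 12 cells each, SNX22 in 13, ARHGAP18 in 39, SLAMF9 in 22, NPFF in 19, CASS4 in 14, SULF2 in 12, MS4A2 in 18 and 1 gene without a symbol, ENSSSCG00000029938, in 14. MS4A2 is the beta chain of the IgE receptor whose alpha chain is FCER1A.

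**Figure D3:**
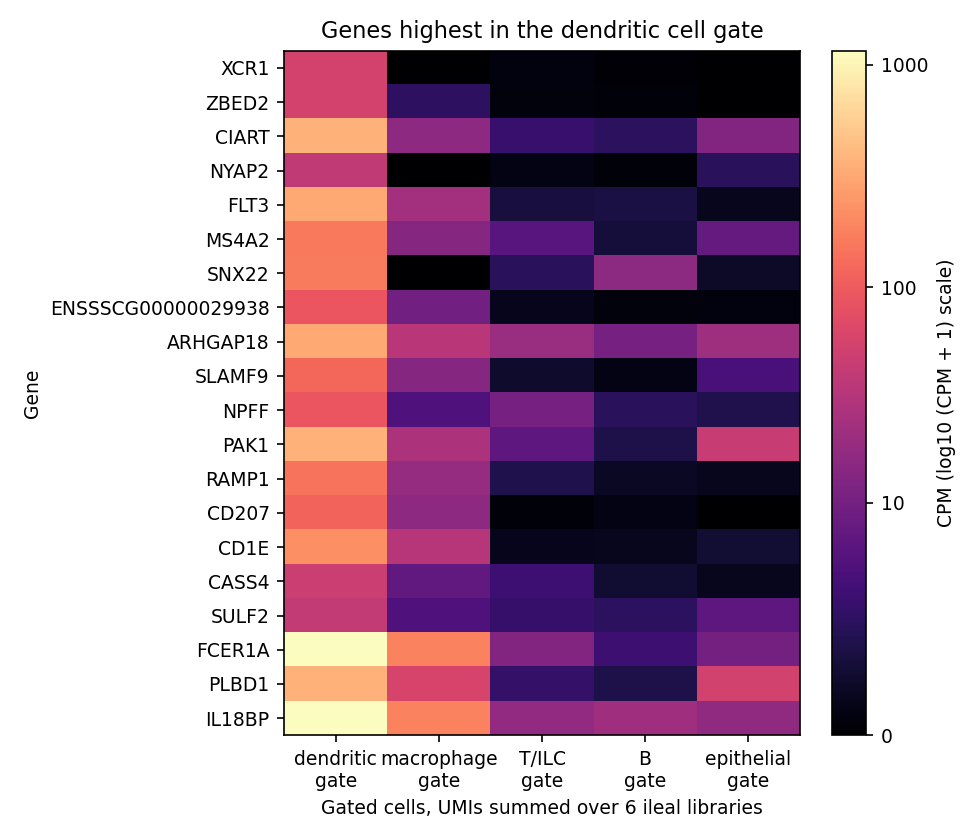
CPM (colour on a log scale) of the 20 leading genes in DCs and in the other gated ileal cell classes, summed over the 6 ileal libraries. DCs lie highest for each, because the genes were chosen by that ratio, and PAK1 stands at 371 CPM in DCs against 44.1 CPM in epithelial cells, its next highest class.

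Genes that define conventional DCs, other than those of the gate, were present. All 12 measured genes of the conventional DC core list had UMIs, a count that includes FLT3, which the gate required. ID2, needed for DC development, was detected in all 56 cells at 1374 CPM, BATF3 in 37, IRF8 in 20 and ZBTB46 in 8. CST3, the protease inhibitor cystatin C, was at 30399 CPM over all DCs, and ranged from 9283 CPM in non-PP of pig 1 to 44738 CPM in whole ileum of pig 2. MHC class II genes summed to 55813 CPM, compared with 35442 CPM in macrophages and 9207 CPM in B cells, a difference that the SLA-DRA condition helped to set.

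Lists of other cell types were partly at 0, apart from CD79B, CD3E and EPCAM, whose absence the gate required. Of 8 measured B cell genes 5 had no UMI, among them CD79A, PAX5 and EBF1, and the whole list summed to 27.9 CPM in DCs against 2609 CPM in B cells. Of 20 macrophage and monocyte genes 6 had none, among them CD163, TIMD4, S100A8, S100A9 and S100A12, while APOE had 129 UMIs in 27 cells and CSF1R 29 UMIs in 20 cells. That list summed to 705 to 1149 CPM in 5 libraries and to 4886 CPM in non-PP of pig 1, where 84 of all 184 LYZ UMIs came from 1 cell. Of 7 mast cell genes HDC, GATA2 and SLC18A2 had none, and MS4A2 was the most abundant at 159 CPM. Of 10 plasmacytoid DC genes PTCRA, TLR7, TLR9 and CD4 had none, while PLD4 was at 243 CPM in 39 cells and TCF4 had 17 UMIs in 7 cells.

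Transcripts of very abundant neighbouring cells were present at low levels. CCL5 of T cells stood at 204 CPM in the DCs and at 13436 CPM in droplets with too few UMIs to hold a cell. FABP6 of epithelium stood at 126 CPM against 15364 CPM in such droplets, and JCHAIN of antibody-secreting cells at 193 CPM against 3157 CPM. Beside the genes of the gate, CD6, IL7R and CD8B of T cells and KRT20, VIL1, FABP2 and APOA4 of epithelium had no UMI. The contribution of free RNA to the low values was not tested.

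Lists of functions known for intestinal DCs were detected in part. Of 13 genes of retinoic acid and gut tolerance 8 had UMIs, while ALDH1A1, ALDH1A2, RDH10, ITGB8 and ARG2 had none, a count that allows up to 8.38 CPM each (3 of 358071 UMIs). Of 16 cytokine genes 10 had UMIs, and IL12A, IL12B, IL6 and IL15 were among those at 0. Of 15 sensors 9 had UMIs, led by TMEM173 (STING) with 20 and TLR4 with 16, and TLR5, TLR7, TLR9 and NOD2 were among those at 0.

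Of 18 genes of migratory DCs 14 had UMIs. BIRC3, an inhibitor of apoptosis, had 128 in 42 cells, CD83, a maturation marker, 99 in 27 cells, CD40 44 in 27 cells and the chemokine CCL22 24 in 10 cells. CCR7, the receptor that takes DCs to lymph nodes, had 4 UMIs in 3 cells, and CCL19, IL15, MARCKSL1 and CD200 had none.

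The 13 XCR1-positive cells were higher in DNASE1L3, CIART, CADM1, IRF8, SNX22 and CST3 and lower in CD1E, CD1D, ACTB and GSN than the 43 XCR1-negative cells. The gate set this split in part, since XCR1 was 1 of its genes and XCR1-negative cells entered through FCER1A or SIRPA. Of the higher genes, all but CST3 passed the filter on low counts through the XCR1-positive sums, so they could only come out higher. UMIs were summed per pig and class, which gave 2 sums a class, and tested with edgeR's quasi-likelihood test and Benjamini-Hochberg adjustment. Of 1433 genes tested, 45 were higher (3.14%) and 29 lower (2.02%) at an adjusted p under 0.05, together 5.16%. DESeq2 called 20 and 6. With the library whose label is in doubt left out, edgeR called 0 genes, with 91 at an unadjusted p under 0.05, and this holds for every XCR1 call below. No filter on low counts gave 0 calls, leaving out both whole ileum libraries gave 0, and sums per library gave 2 higher and 10 lower. Leaving out the XCR1-positive sum of pig 2 also gave 0 calls, and leaving out that of pig 1 gave 1, with the spread then taken from the XCR1-negative sums alone.

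Few cells stood behind pig 1. Its XCR1-positive sum held 3 cells, 1 from each dissection, with 1860 UMIs in PP, 4738 in non-PP and 10830 in the whole ileum library in doubt, and pig 2 gave the other 10 cells. XCR1-positive cells were 7 of 25 DCs in PP, 3 of 7 in non-PP and 3 of 24 in whole ileum. They were also deeper, with a median of 8045 UMIs against 5863 over the negative cells, and a positive call needed 1 UMI.

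Among the cDC1 genes, 4 of 5 tested were higher, and the median log2 fold change of the 5 was 3.67 against -0.03 over all genes tested. Those 4 passed the filter on low counts through the XCR1-positive sums and could only come out higher, so the count and median are a description. IRF8 (chr6:3041617-3060685) stood at 1033 and 803 CPM in the XCR1-positive sums of pigs 1 and 2 and at 85.3 and 70.2 CPM in the XCR1-negative sums, with a log2 fold change of 3.67 ± 0.36 (SE) and an adjusted p = 0.00133. CADM1, an adhesion molecule of cDC1 (chr9:42644487-42984934), stood at 689 and 527 CPM against 46.5 and 39.0 CPM (3.89 ± 0.38, adjusted p = 0.00133). In both genes the classes were far apart in either pig.

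Without both whole ileum libraries, the differences in IRF8 and CADM1 kept their direction in pig 2, and that of CADM1 did not in pig 1. IRF8 was then at 303 CPM in positive and 125 CPM in negative cells of pig 1, and at 831 and 0 CPM in pig 2. CADM1 was at 0 and 62.7 CPM in pig 1, the opposite order, and at 529 and 11.6 CPM in pig 2. DNASE1L3 kept its direction in both pigs, at 455 against 0 CPM in pig 1 and 529 against 0 CPM in pig 2.

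DNASE1L3, a secreted DNase (chr13:39958384-39976114), was the largest increase by the fit, at 1377 and 779 CPM in XCR1-positive sums against 0 and 70.2 CPM in XCR1-negative sums (4.96 ± 0.74, adjusted p = 0.00971). Its 9 XCR1-negative UMIs lay in 1 cell, and it passed the filter on low counts through the XCR1-positive sums, which fixed its direction. CIART (chr4:98800849-98809573) was at 861 and 1139 CPM against 77.6 and 77.9 CPM (3.91 ± 0.37, adjusted p = 0.00133). SNX22, a sorting nexin, was at 287 and 515 CPM against 46.5 and 39.0 CPM (3.57 ± 0.44, adjusted p = 0.00380). Without the library in doubt, the sums of pig 1 came close together, with CIART at 152 against 125 CPM and SNX22 at 152 against 94.1 CPM. LY96, the TLR4 co-receptor, ANPEP, an aminopeptidase, SERPING1, the C1 inhibitor, PLAAT3 and ENSSSCG00000013144 completed the named increases, with log2 fold changes of 3.11 to 3.62. They, like CIART and SNX22, passed the filter on low counts through the XCR1-positive sums and could only come out higher. BATF3 was at 574 and 1055 CPM against 442 and 359 CPM and did not pass the test (adjusted p = 0.0854).

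CST3, of the conventional DC core list, was higher as well. It stood at 77347 and 71298 CPM in XCR1-positive sums against 13932 and 13968 CPM in XCR1-negative sums (2.60 ± 0.07, adjusted p = 3.34e-07). Of the MHC class II list 2 of 5 tested were higher, CD74 with a log2 fold change of 0.95 and SLA-DQB1 with 1.02, and none was lower. Of 12 antigen processing genes 3 were higher, namely CTSB (1.81), TAP1 (1.79) and B2M (0.72). TAP1 carries peptides to MHC class I.

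The genes lower in XCR1-positive DCs included CD1 molecules and actin genes. CD1E was at 0 and 11.98 CPM in XCR1-positive sums and at 365 and 249 CPM in XCR1-negative sums (-4.59 ± 0.77, adjusted p = 0.0160), and CD1D was lower by a log2 fold change of -2.82. Of 14 actin and motility genes tested, ACTB (-1.45 ± 0.15) and GSN (-1.86 ± 0.40) were lower and none was higher. ENSSSCG00000039880, without a symbol, was absent from all 13 XCR1-positive cells and present in 33 negative cells at 1008 and 1130 CPM, at least 35.9-fold lower when the positive class is set to 3 UMIs. NFAM1, an immune receptor with a tyrosine-based motif, and TMEM176B were each at least 8.24-fold lower in the same sense, PCLAF at least 7.58-fold, CCND2 at least 6.80-fold and ENSSSCG00000034555 at least 6.14-fold. ENG, FABP5 and GMFG had log2 fold changes of -4.09 to -3.96. The genes at 0 in XCR1-positive cells, and CD1E, ENG, FABP5 and GMFG with 1 UMI there, passed the filter on low counts through the XCR1-negative sums, so they could only come out lower. The same holds for CD1D, with 5 UMIs in XCR1-positive cells.

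PCLAF, a factor that binds the replication clamp, was found in 11 cells, and 28 of its UMIs lay in 1 of them. Its XCR1-negative sums were at 271 and 179 CPM. IL18BP (adjusted p = 0.197) and MS4A2 (adjusted p = 0.135) did not pass the test, and CD207 did not pass the filter on low counts, with 1 XCR1-positive and 17 XCR1-negative cells holding it.

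**Figure D4:**
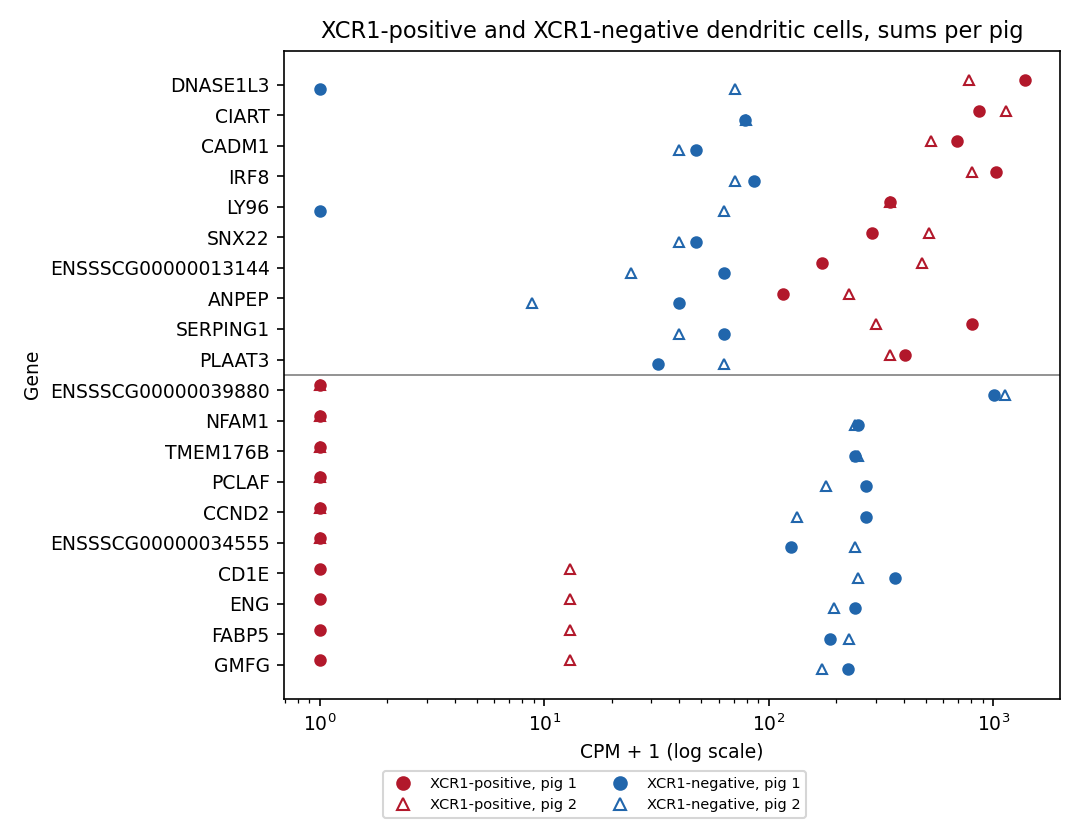
CPM + 1 on a log axis in the XCR1-positive and XCR1-negative sums of DCs of each pig, for genes named in the text. IRF8 and CADM1 are higher in both XCR1-positive sums and CD1E is lower in both; a CPM of 0 is drawn at 1, and the positive sum of pig 1 holds 3 cells.

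Compared with C1q-positive macrophages of the same libraries, the DCs were higher in 13 of 15 actin and motility genes, CCR9, BATF3 and IL18BP. They were lower in 11 of 12 monocyte and macrophage genes, in 8 of 13 antigen processing genes and in 5 of 7 interferon-stimulated genes. The macrophage gate held 91 cells, 53 labelled pig 1 and 38 pig 2. Of 2551 genes tested in sums per pig, 182 were higher in DCs (7.13%) and 317 lower (12.4%), together 19.6%, by the same edgeR test, and DESeq2 called 57 and 200. Without the library in doubt, 80 were higher and 195 lower, and among the named calls that could still be tested 54 remained and 17 were lost. The lost calls were S100A6, SPI1, RUNX3, ITGAE, TAP1, PSMB9, CD74, PFN1, CFL1, VASP and PCLAF among the higher genes and IL10, CXCL10, IRF7, ISG15, MX2 and IFI30 among the lower. CCR9, CD207, LY75, CD164L2, NPFF, RABGAP1, GPR82, CCR7, FSCN1, CTSL, FCGR1A, TNFSF13B and C4BPA no longer passed the filter on low counts. The gates differ by design in FLT3, C1q, SLA-DRA and the subset genes FCER1A, SIRPA and XCR1, of which FCER1A was seen in 6.59% of macrophages. CD74 (0.53), which pairs with MHC class II, and MS4A2, the partner chain of FCER1A, are therefore not independent of the gates.

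Of the 20 monocyte and macrophage genes 12 passed the filter on low counts, and 11 of these were lower in DCs, with a median log2 fold change of -4.87 (-4.67 with genes at 0 set to their bound) against 0.01 over all genes. CD163 and TIMD4 (0 UMIs in DCs), ACP5 and FCGR1A (1), CD14 (3), CD68 (4) and SELENOP (12) passed the filter through the macrophage sums. They could only come out lower, so the count and median are a description. APOE (129), LGMN (32), CSF1R (29) and CTSD (23) had more UMIs in DCs and were lower too. CD163, the haemoglobin scavenger receptor, was at 0 in both DC sums and at 238 and 207 CPM in the macrophage sums, at least 26.7-fold lower. TIMD4, a receptor for dying cells, was at 0 against 2275 and 481 CPM (at least 174-fold). LYZ was at 827 and 298 CPM in DCs and 709 and 280 CPM in macrophages and did not pass the test (adjusted p = 0.982).

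The genes with the largest fitted decreases had 0 or 1 UMI in DCs and passed the filter through the macrophage sums, so they too could only come out lower. CLU, a secreted chaperone, was at 0 in DCs and at 3555 and 1760 CPM in macrophages, at least 327-fold lower. CCL11, the eosinophil chemokine eotaxin, was at 0 against 835 and 771 CPM (at least 96.2-fold). C3 was at least 40.2-fold lower, C4BPA and PLD3 at least 27.6-fold and C5AR1 at least 27.3-fold, and ENSSSCG00000031640 and ENSSSCG00000032503 at least 270-fold and 105-fold. ACP5, a lysosomal phosphatase, was at 6.83 and 0 CPM against 1457 and 1014 CPM (-8.59 ± 0.52, adjusted p = 9.57e-05).

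Among receptors, CCR9, ITGAE and ITGB7 were higher in the DCs and CCR7 was lower. CCR9, which directs cells to the small intestine, was at 116 and 94.5 CPM in DCs of pigs 1 and 2 and at 8.65 and 5.18 CPM in macrophages (3.65 ± 0.53, adjusted p = 0.00351). Of 5 genes tested in the list for retinoic acid and gut tolerance, ITGAE (1.30), ITGB7 (1.77) and IL4I1 (3.11) were higher and IL10 lower (-2.50). ITGAE and ITGB7 pair as the CD103 integrin. Among 8 chemokine and receptor genes tested, CCR9 and GPR82 were higher, while CCR7, CXCL8, CXCL10 and CXCL14 were lower. CCR9 had 3 UMIs in macrophages, and CCR7 had 4 and CXCL8 2 in DCs. Each passed the filter through the class where it was high, so its direction was fixed. The same holds for IL4I1, through the DC sums, and for IL10, through the macrophage sums. CCL5, counted here with the T cell list, was lower too.

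The actin list was higher almost throughout. Of 15 genes tested 13 were higher in DCs and 1, FSCN1, was lower, with a median log2 fold change of 1.09. FSCN1 had 3 UMIs in DCs and passed the filter through the macrophage sums, so it could only come out lower. ACTB was at 6690 and 5748 CPM against 3109 and 2277 CPM (1.09 ± 0.17, adjusted p = 0.00435). PAK1 was at 369 and 373 CPM against 25.9 and 31.1 CPM (3.57 ± 0.30, adjusted p = 0.000379). For ACTB and PAK1 the DC and macrophage sums did not overlap. PAK1 had 12 UMIs in macrophages and passed the filter through the DC sums, which fixed its direction.

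IL18BP and IL18 differed in opposite directions. IL18BP was at 1237 and 1096 CPM in DCs and at 177 and 197 CPM in macrophages (2.52 ± 0.20, adjusted p = 0.000312), while IL18, the cytokine it neutralises, was at 13.7 and 52.0 CPM against 1124 and 559 CPM (-4.65 ± 0.53, adjusted p = 0.00129). IL18 had 13 UMIs in DCs and passed the filter on low counts through the macrophage sums, so it could only come out lower. TNF, TNFSF13B and IL10 were lower as well, which makes 4 lower and 1 higher of 6 tested among 16 measured. TNF, TNFSF13B and IL10 had 2, 3 and 6 UMIs in DCs and also passed the filter through the macrophage sums. Of 7 interferon-stimulated genes tested, ISG15, IFI6, MX2, IRF7 and BST2 were lower. IRF7, with 15 UMIs in DCs, passed the filter through the macrophage sums, which fixed its direction.

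Among DC genes that the gate did not use, BATF3 (chr9:130699092-130711719) was at 458 and 633 CPM in DCs against 117 and 88.0 CPM in macrophages (2.29 ± 0.29, adjusted p = 0.00181). ID2 (1.47) and SPI1 (0.88) were higher as well, which makes 3 of 7 core genes tested. Of the cDC1 list BATF3 was higher, as was SNX22, which macrophages lacked, and DNASE1L3 was lower, at 164 and 349 CPM against 1886 and 1610 CPM (-2.84 ± 0.32, adjusted p = 0.00129), although it was higher in XCR1-positive than in XCR1-negative DCs. Of 9 cDC2 genes tested, CD1E (2.67), CD207 (2.62) and RUNX3 were higher and CSF1R (-2.40) was lower. CD1E had 14 UMIs in macrophages and CD207 7, so both passed the filter through the DC sums and could only come out higher. In pig 1 without the library in doubt, CD207 was at 0 in both DCs and macrophages.

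The other named increases were SNX22, absent from the macrophage sums and at least 23.3-fold higher, ENHO at least 8.69-fold and CD164L2 at least 7.90-fold. These 3 genes, and LY75 with 1 UMI in macrophages, passed the filter through the DC sums and could only come out higher. LY75, the endocytic receptor DEC-205, was at 75.2 and 52.0 CPM against 4.32 and 0 CPM. CIART, NPFF, RABGAP1 and S100A6 had log2 fold changes of 3.45 to 4.21, and MS4A2 one of 3.34 ± 0.53. In macrophages they had 7, 2, 2, 5 and 6 UMIs in that order. They too passed the filter through the DC sums and could only come out higher. In antigen processing the direction was mixed. CTSS, CTSC, CTSH, CTSB, CTSL, LGMN, IFI30 and B2M were lower in DCs, while TAP1 (0.84) and PSMB9 (0.99), which serve MHC class I loading, were higher, of 13 tested. CTSL had 1 UMI in DCs and passed the filter through the macrophage sums, so it could only come out lower.

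**Figure D5:**
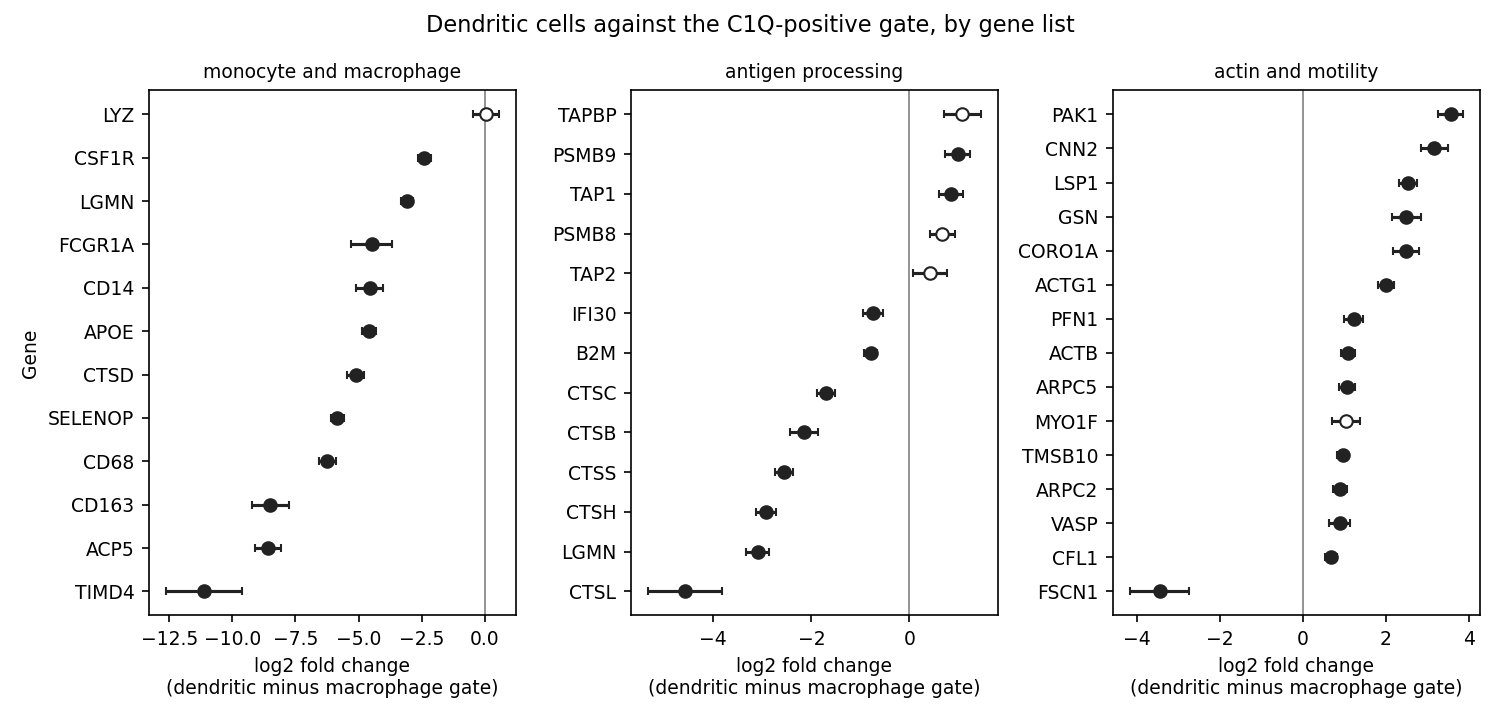
Log2 fold change with its SE for DCs against macrophages, from the fit over sums per pig, for the tested genes of 3 lists (filled points passed the test, open ones did not). All but LYZ lie left of 0 among 12 macrophage genes, and 13 filled points lie right of 0 among 15 actin genes; values of genes at 0 in DCs, such as TIMD4, depend on the fit.

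No gene was called between DCs of PP and of non-PP. Of 847 genes tested over library sums, 0 passed (0%), with 40 at an unadjusted p under 0.05 and a smallest adjusted p of 0.390. DESeq2 also called none, with 21 unadjusted. The non-PP sums held 3 and 4 cells. BATF3 was among the genes with the smallest adjusted p, at 627 and 733 CPM in PP and 133 and 218 CPM in non-PP of pigs 1 and 2, with 448 and 655 CPM in whole ileum (1.89 ± 0.47, adjusted p = 0.390).

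None of the 5 cDC1 genes tested was called, with a median log2 fold change toward PP of 1.24 against -0.05 over all genes. XCR1-positive cells themselves were 7 of 25 DCs in PP and 3 of 7 in non-PP. STMN1, a microtubule regulator of dividing cells, was at 627 and 392 CPM in PP against 133 and 62.2 CPM in non-PP (adjusted p = 0.390). JCHAIN, a transcript of antibody-secreting cells, was at 418 and 175 CPM in PP DCs and at 0 in both non-PP sums (adjusted p = 0.502), and CCL5 at 230 and 125 CPM against 444 and 435 CPM (adjusted p = 0.573). For STMN1, JCHAIN and CCL5 the PP and non-PP samples did not overlap. The share of all 847 genes tested that lay apart in this way was not computed, so no difference is drawn from it. The part of free RNA in the values of JCHAIN and CCL5 was not tested.

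The same gate found 6 and 7 DCs in the PBMC libraries of pigs 1 and 2. A minimum of 10 cells per sum had been set for the comparison with blood, though not for those between dissections or XCR1 classes, so no test was run. Sums are given instead, with exact 95% Poisson intervals for counts above 0 and a limit of 3 UMIs for counts of 0, both covering counting error only. CD1E, CD207 and RAMP1 were at 0 in both blood sums, where a count of 0 allows up to 68.5 CPM in pig 1 and 45.2 CPM in pig 2 (3 UMIs), while the ileal DCs held 223, 115 and 148 CPM. IL18BP was at 0 in blood of pig 1 and at 15.1 CPM, from 1 UMI, in pig 2 (0.381 to 83.9) against 1153 CPM in ileum (1045 to 1270). GSN was at 137 and 45.2 CPM against 1449 CPM.

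Other genes had higher sums in blood than in the pooled ileal DCs. S100A4, a calcium-binding protein, was at 3423 and 1355 CPM in blood DCs and at 11.2 CPM in ileal DCs (3.04 to 28.6). PLAC8 was at 1575 and 5887 CPM against 542 CPM, and MS4A2 at 799 and 482 CPM against 159 CPM. The intervals of blood and pooled ileum did not overlap for any of these 3 genes. PLAC8 was uneven in ileum, at 1599 CPM in non-PP of pig 1, a value like that of blood from the same pig, and at 403 to 579 CPM in the other ileal libraries. Non-PP of pig 1 held 36 PLAC8 UMIs in all, and the highest single DC of any ileal library held 33.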

How the data were processed

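The authors aligned reads to Sscrofa11.1 with an adapted Ensembl release 97 annotation and counted UMIs with Cell Ranger (4.0.6 in the submitters' processing notes). The deposited matrices hold raw UMI counts of 25880 genes in 737280 barcodes per library, before removal of ambient RNA, and each library was sequenced in 4 runs. Names missing from the matrices came from a RefSeq or gene name table (969 genes) or the study's table (22), and 7159 genes kept an identifier only.

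From the counts, barcodes were gated as stated, CPM was computed within each gate, and doublets were scored with Scrublet in scanpy 1.11.5 and not removed. UMIs were summed per library (PP against non-PP) or per pig and tested with edgeR 4.0.16 (glmQLFTest, TMM, filterByExpr) in R 4.3.3, called at an adjusted p under 0.05. The filter on low counts can be passed through 1 class alone, which fixes the direction of a gene low in the other class. DESeq2 1.42.0 was an alternative. The cells of 1 pig are not replicates. For XCR1 and macrophages, p-values measure the spread between sums labelled as 2 pigs, and the sums labelled pig 1 include the doubted library. For PP against non-PP they measure the spread between libraries of the same dissection. Pigs share their number across dissections because same-numbered samples came from 1 animal, the doubted library apart. Correlations of deviations from group means were 0.284 between PP and non-PP, 0.0199 between XCR1 classes and 0.147 between DCs and macrophages.

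Named genes were the detected list genes, the 10 largest calls in each direction moving alike in both pigs (at most 2 without symbol), and the 20 highest ratios among genes in at least 20% of DCs. The members and lists were chosen with earlier results of these data known. On simulated data, 78.8%, 98.0% and 97.0% of genes changed 4-fold were called for PP against non-PP, XCR1 and macrophages. Values of some list genes are not reported here.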

Additional observations from a re-analysis of the deposited data

Results flagged for a closer look

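Y-linked genes stood at 207 CPM in kept barcodes of the library labelled whole ileum of pig 1, a female by its label, while the other libraries of that pig held at most 0.224 CPM. The level is in the range of the male pig 2. This signal lies outside the genes of the comparisons. Which library or animal the label should name was not tested.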

How the results depend on the processing

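Removing scored doublets took out 0 DCs and left every fit as it was, so it is no check of the calls. RLE size factors left every count of calls within 1.5 times, and so did the replicate block. Under the block, 0 genes were called for PP against non-PP, 61 higher and 43 lower for XCR1 and 215 and 342 for macrophages. The block lost no named call. The difference in share under the block, 0.0878 percentage points, equals that without it by construction and is no check. No call that could be tested again changed sign under any alternative, but the filter on low counts had fixed the direction of many. Without both whole ileum libraries, 24 of the 45 higher and 23 of the 29 lower XCR1 calls could be tested. For PP against non-PP, no filter on low counts called 3 higher and 1 lower, and leaving out a library gave 0 to 5 higher and 0 to 2 lower. The difference in share ran from -0.00957 (without PP of pig 2) to 0.185 (without PP of pig 1) when 1 library was left out, and it was 0.412 among barcodes without CD79B and 0.0570 with FLT3 at 2 or more UMIs, where pig 1 turned to -0.0103. For XCR1, DESeq2 called 20 higher and 6 lower, sums per library 2 and 10, and neither direction any gene (0) with no filter (529 unadjusted) or without whole ileum (71 unadjusted). Leaving out 1 sum gave 0 to 50 higher and 0 to 30 lower, with 0 and 0 without the positive sum of pig 2, 1 and 0 without that of pig 1, and 26 and 9 without the negative sum of pig 1. Leaving out the doubted library, chosen after seeing the data, gave 0 and 0 (91 unadjusted). For macrophages, DESeq2 called 57 and 200, no filter 511 lower, no whole ileum 59 and 159, sums per library 100 and 120, no doubted library 80 and 195, and leaving out 1 sum 152 to 179 and 322 to 380. Where these changes do not follow from fewer cells or more genes tested, the cause was not tested. The ileum and blood test and its alternatives were not run, since blood sums held under 10 cells. Depth limits every statement on genes at 0.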
